A study of Mus musculus with 9 samples.

Results

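Genes of the hypoxia response and of glycolysis were followed in primary mouse lung endothelial cells (MLEC) that lack the JNK protein kinases and in control MLEC. The set holds 38 genes of the 37104 loci in the deposited table, each taken as the locus whose gene symbol equals the name of the member. Of these, 20 act in glucose uptake, glycolysis and the fate of pyruvate, 9 are subunits or regulators of the hypoxia-inducible factors (HIF), and 9 are genes known to be induced by low oxygen. All 38 were found under a symbol that names 1 locus. RNA was sequenced in 9 libraries, 3 per group, from C57BL/6J mice of 10 to 12 weeks. ECtrl cells were Cdh5-Cre+ with intact Jnk1 (Jnk1+/+) and intact Jnk2 (Jnk2+/+). EfCtrl cells carried LoxP alleles of both genes (Jnk1LoxP/LoxP and Jnk2LoxP/LoxP) but were Cdh5-Cre-, so no recombinase was present. E3KO cells had Cdh5-Cre+ together with these LoxP alleles. All 3 groups were Jnk3-/-, so no group has the full set of JNK genes, ECtrl has Cre without LoxP sites, and EfCtrl has the sites without Cre. The *Cdh5* promoter drives Cre in endothelial cells. For every library the lungs of several mice were pooled in a separate isolation, and cells were selected with beads against ICAM2 and grown in culture. The labels name no low-oxygen treatment of these cells.

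In well-oxygenated cells the prolyl hydroxylases *Egln1*, *Egln2* and *Egln3* mark the alpha subunits of HIF (*Hif1a*, *Epas1*, *Hif3a*) for recognition by *Vhl* and degradation, and the asparaginyl hydroxylase *Hif1an* blocks their activity. When oxygen is low the alpha subunits escape, pair with *Arnt* and switch on genes for glucose uptake, glycolytic enzymes and the diversion of pyruvate to lactate. Endothelial cells draw much of their ATP from glycolysis even when oxygen is at hand, and the glycolytic regulator *Pfkfb3* is known for its part in vessel sprouting.

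HIF bind DNA at a short core motif, ACGTG or GCGTG, and the promoters of the members were searched for both on either strand (CACGT and CACGC on the other strand; CACGTG counts on both strands and is also the motif of other factors). RefSeq promoter windows, from 250 bases before to 50 after a gene's start on GRCm38.p6, were at hand for 35 of the 38 members. Either motif was in a window of 30 of the 35 genes (85.7%) and of 46.7% of all 27025 genes. ACGTG was found for 23 members (65.7%, against 21.8%), and GCGTG also for 23 (65.7%, against 35.2%). Both motifs hold a CG step, and the windows of the members had more of these than those of all genes (a mean of 19.3 against 12.4) and a higher GC content (61.6% against 53.8%). The share was not tested, and a match is only a run of letters. The 250 bases before the start are shown for *Pdk1*, *Hk2* and *Egln3*, whose values lead the results that follow, with the motifs in capitals, 5′ to 3′ on the strand of the gene.
Pdk1, chr2:71872974-71873223, plus strand: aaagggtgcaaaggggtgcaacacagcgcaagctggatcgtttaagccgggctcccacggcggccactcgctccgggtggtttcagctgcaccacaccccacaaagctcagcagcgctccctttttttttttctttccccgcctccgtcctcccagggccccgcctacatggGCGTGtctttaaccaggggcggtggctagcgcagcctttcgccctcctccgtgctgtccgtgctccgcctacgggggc
Hk2, chr6:82774455-82774704, minus strand: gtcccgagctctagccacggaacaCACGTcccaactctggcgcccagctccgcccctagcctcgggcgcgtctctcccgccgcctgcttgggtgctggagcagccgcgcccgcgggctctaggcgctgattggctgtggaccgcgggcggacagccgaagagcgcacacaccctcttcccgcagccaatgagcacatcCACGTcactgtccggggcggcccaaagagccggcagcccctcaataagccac
Egln3, chr12:54203875-54204124, minus strand: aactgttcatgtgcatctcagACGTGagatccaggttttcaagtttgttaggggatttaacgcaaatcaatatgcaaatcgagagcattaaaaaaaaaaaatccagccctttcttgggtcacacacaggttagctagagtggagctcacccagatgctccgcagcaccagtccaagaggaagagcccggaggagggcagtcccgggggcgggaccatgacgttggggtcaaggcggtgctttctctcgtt
*Pdk1* has 1 match in these bases, *Hk2* has 2 and *Egln3* has 1. A second RefSeq start of *Pdk1* has none in its window.

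The targeted genes were examined first, in FPKM (fragments scaled for transcript length and for the size of the library). *Mapk8* (JNK1) was at 17.0, 15.0 and 17.9 in ECtrl replicates 1 to 3, at 16.7, 14.1 and 15.1 in EfCtrl and at 8.77 and 4.65 in E3KO replicates 2 and 3. In the library labelled E3KO replicate 1 it was at 20.75, above all 6 controls, which for this gene goes against the label. *Mapk9* (JNK2) was at 27.6, 35.1 and 20.7 in E3KO and between 42.7 and 50.9 in the controls. For *Mapk9* the library labelled E3KO replicate 1 thus goes with its label. *Mapk10* (JNK3) was at 0.270 or less everywhere. The library labelled E3KO replicate 1 stood apart in other ways. Its FPKM summed to 9841812, against 656089 to 908401 in the other 8 libraries. Of this sum 96.4% came from its 10 highest symbols, against 40.9% to 56.8%. Without the 5 symbols of highest mean FPKM its sum was 420517, within the 388537 to 433172 of the other 8. The sum over its remaining symbols was thus not lowered. It listed 19239 symbols at 0 FPKM, against 16436 to 17964 in the other 8. The values of the main comparison, against both controls, are therefore also given without this library where it moved them most.

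The libraries carried endothelial markers (*Cdh5* at 613 to 943 FPKM, and the sum of 8 markers at 2809 to 3479 in controls and 3451 to 3819 in E3KO). Among these 8, *Emcn* was called higher and *Cldn5* lower in E3KO by the test described below, which called 1.54% of all genes higher and 3.26% lower. Of 6 lymphatic endothelial markers 3 were called lower (*Prox1*, *Ccl21a*, *Reln*), and these did not overlap. *Prox1* was at 58.1 to 79.2 FPKM in E3KO and 117 to 158 in controls. *Reln* was at 32.7 to 34.7 and 50.2 to 81.0, and *Ccl21a* at 0.591 to 1.02 and 2.03 to 9.835. *Lyve1*, *Pdpn* and *Flt4* overlapped. The sum of the 6 was 2179 to 2862 in controls and 2011 to 2319 in E3KO, most of it *Lyve1* (1534 to 2050 and 1513 to 1728). The sum of 7 leukocyte markers ran from 42.4 to 230.3 in controls and from 162 to 286 in E3KO, with none of 3 tested markers past the test. Of the 7 only *Itgam*, which was not tested, did not overlap, at 1.66 to 1.98 FPKM in E3KO and 0.156 to 1.295 in controls. The sum of 10 fibroblast and smooth muscle markers ran from 13.2 to 81.8 in controls and from 12.4 to 26.1 in E3KO, with none of 6 tested markers past the test. Of the 10 only *Col1a1* did not overlap, at 0.0131 to 0.583 FPKM in E3KO and 0.591 to 6.67 in controls. The sum of 7 lung epithelial markers was 51.3 in the library labelled E3KO replicate 1 and 2.55 to 6.05 in the other 8, and 46.2 of it was *Scgb1a1*. *Hbb-b1* and *Hba-a1*, the red cell globins, were at 0 in all 9 libraries. The part of these cell types in the differences below was not tested, and a change in the mix of cells and a change of RNA per cell cannot be told apart in bulk libraries.

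Differences between groups were tested with limma on log2(FPKM + 1), and this scale understates the change of genes with low FPKM. A gene was tested if its mean was at least 2 FPKM in at least 1 group, which 10605 genes met, and it was called at a Benjamini-Hochberg adjusted p under 0.05 over these genes. Of the 38 members 34 were tested, 18 of them in glucose metabolism, 8 among the HIF regulators and 8 among the induced genes. *Aldoc*, *Eno2*, *Hif3a* and *Car9* lay below this minimum. *Pfkfb4* reached it only through E3KO and so had to differ to be tested.

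The highest level in glucose metabolism was that of *Aldoa*, an aldolase, which was at 164, 131 and 230 FPKM in ECtrl, at 225, 186 and 155 in EfCtrl and at 130, 171 and 169 in E3KO. The 3 groups overlapped. *Ldha*, which turns pyruvate into lactate, followed with 83.2 to 111 FPKM over the 9 libraries, then *Tpi1* and *Gpi1*, isomerases of the pathway, whose ranges (52.4 to 77.3 and 43.5 to 76.8) overlapped each other. *Hk1*, *Eno1*, *Pgk1* and the glucose transporter *Slc2a1* were between 18.0 and 55.8 FPKM. The phosphofructokinase subunits *Pfkp*, *Pfkm* and *Pfkl*, whose enzyme commits sugar to glycolysis, were between 4.28 and 12.3 FPKM. *Gapdh* was listed at only 3.76 to 5.88 FPKM. Its sequence is shared with 78 other annotated genes (at least 95% identity over at least 200 bases), and the authors' assignment of fragments among such copies was not stated, so its level is uncertain. *Pgk1*, *Ldha*, *Eno1*, *Gpi1*, *Tpi1*, *Pgam1*, *Bnip3*, *Bnip3l* and *Higd1a* have 1 to 4 such copies each.

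**Figure D1:**
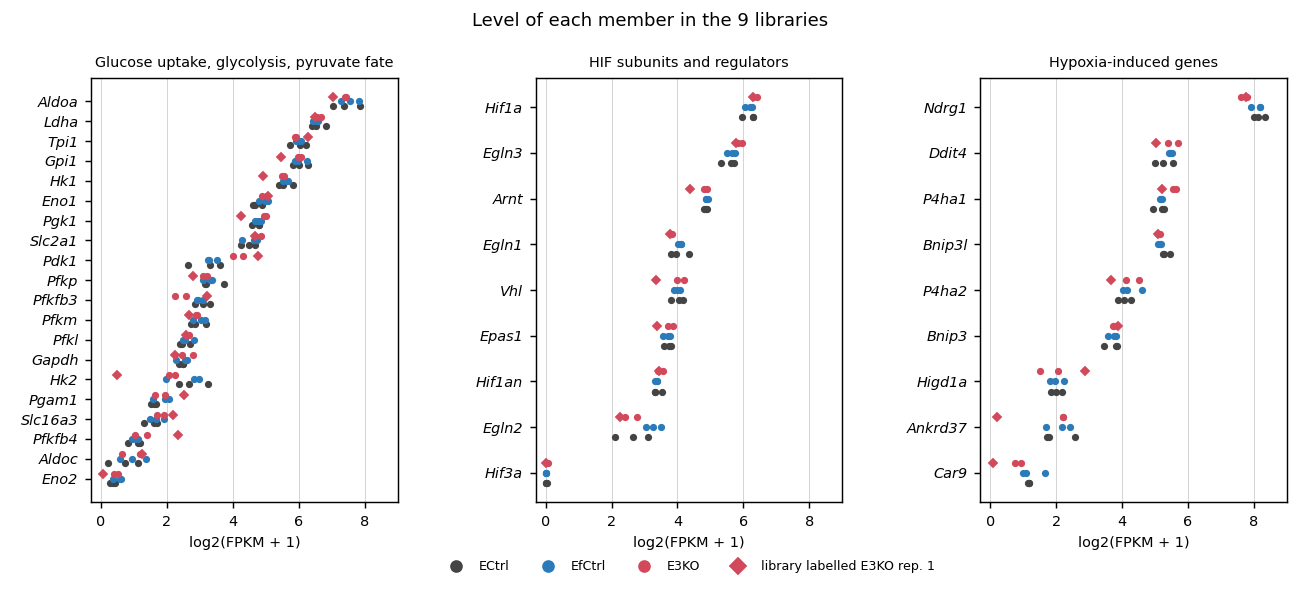
Level of each of the 38 members as log2(FPKM + 1) on the horizontal axis, with 1 point per library and members ordered by their mean over the 9 libraries. *Ndrg1*, *Aldoa* and *Ldha* lead, *Hif3a* is at or near 0, and the library labelled E3KO replicate 1 (diamonds) is often the outermost point of a row.

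The plot of levels shows that differences between genes span a far wider range than differences between groups. The comparison of E3KO with the mean of both control groups called 1 of the 34 tested members (2.94%), against 4.80% of all 10605 genes (1.54% higher and 3.26% lower). By a second rule, that the 3 E3KO libraries lie wholly above or below the 6 controls, 3 of 34 members stood apart (8.82%), against 16.6% of all genes (5.18% higher and 11.5% lower). By direction, 1 member was called higher (2.94%) and 0 lower, and 2 members (5.88%) separated above and 1 (2.94%) below. The shares above were thus near or over those of all genes and the shares below under them, on counts of 0 to 2. At an unadjusted p under 0.05 there were 5 members, or 14.7%, against 23.8% of all genes.

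The member that was called is *Pdk1* (chr2:71873224-71903858), pyruvate dehydrogenase kinase, which inactivates the enzyme complex that feeds pyruvate into mitochondrial oxidation and is a well-known HIF target. *Pdk1* was at 5.25, 8.86 and 11.2 FPKM in ECtrl, at 8.80, 8.49 and 10.6 in EfCtrl and at 26.0, 14.9 and 18.8 in E3KO. Every E3KO library lay above all 6 control libraries, and the highest was the library labelled E3KO replicate 1. The means were 8.43 ± 2.98 in ECtrl, 9.28 ± 1.12 in EfCtrl and 19.9 ± 5.63 in E3KO (SD, n = 3 each). The log2 difference from the mean of the controls was 1.08 (SE 0.23, 95% interval 0.55 to 1.62, limma adjusted p = 0.0411). Against ECtrl alone it was 1.17 (adjusted p = 0.0653 from limma) and against EfCtrl alone 1.00 (adjusted p = 0.121 from limma), neither past the threshold. The call rested on most of the libraries. It was lost without ECtrl replicate 2 (limma adjusted p = 0.0638), without EfCtrl replicate 1, 2 or 3 (0.1002, 0.0865 and 0.0841) and without E3KO replicate 1, 2 or 3 (0.0866, 0.0510 and 0.118), while the log2 difference stayed between 0.88 and 1.26 in these fits and those without ECtrl replicate 1 or 3. Without the library labelled E3KO replicate 1, E3KO replicates 2 and 3 still lay above every control library, with a log2 difference of 0.88 (SE 0.24).

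The largest log2 difference downwards in glucose metabolism was that of *Hk2* (chr6:82725025-82774454), the inducible hexokinase that traps glucose in the cell. *Hk2* was at 5.37, 4.20 and 8.58 FPKM in ECtrl, at 2.94, 6.14 and 6.84 in EfCtrl and at 0.405, 3.17 and 3.73 in E3KO. The E3KO libraries lay below all of ECtrl but overlapped EfCtrl, whose replicate 1 was below 2 of them. The log2 difference from the controls was -1.08 (SE 0.42, 95% interval -2.05 to -0.12), which did not pass adjustment (limma adjusted p = 0.170). It was -0.53 (limma adjusted p = 0.359) without the library labelled E3KO replicate 1, where the level of *Hk2* was lowest. *Hk1*, the housekeeping hexokinase, was far higher, at 29.2 to 55.8 FPKM. The promoter bases printed for *Hk2* hold ACGTG, as read on the other strand, and those of *Pdk1* hold GCGTG. Whether such letters go with the direction of a difference was not tested.

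*Pfkfb3* and *Pfkfb4* make and break down a sugar phosphate that activates phosphofructokinase. *Pfkfb4* was at 0.773, 1.26 and 1.17 FPKM in ECtrl, at 0.911, 1.06 and 1.16 in EfCtrl and at 4.07, 1.03 and 1.62 in E3KO. Only the library labelled E3KO replicate 1 was far above the controls, while replicate 3 lay just above the highest control and replicate 2 within their range. *Pfkfb3* ranged from 6.27 to 8.89 FPKM over the controls and had 8.21, 4.97 and 3.79 in E3KO, where replicates 2 and 3 were below every control and the library labelled E3KO replicate 1 was within the control range. The *Pfkfb3* log2 difference was -0.35 (limma adjusted p = 0.319) with all libraries and -0.62 (limma adjusted p = 0.0638) without that library.

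The other 14 tested genes of glucose metabolism had log2 differences between -0.28 (*Pfkp*) and 0.30 (*Slc16a3*, the lactate exporter), and none passed adjustment. Without the library labelled E3KO replicate 1 they lay between -0.16 (*Pfkp*) and 0.25 (*Slc2a1*). *Ldha* differed by 0.03 (95% interval -0.23 to 0.29), *Aldoa* by -0.19 (95% interval -0.65 to 0.26) and *Slc2a1* by 0.22 (95% interval -0.09 to 0.53), and each of these intervals holds 0. Over the 18 tested genes the median was 0.03, with 10 above 0 (also 0.03 over the 17 without *Pfkfb4*, and 0.0618 over these 17 without the library labelled E3KO replicate 1), beside a median of -0.08 and 38.2% above 0 over all tested genes (-0.0572 without that library). *Aldoc* was at 0.172 to 1.59 FPKM and *Eno2* at 0.0455 to 0.536, both with overlapping groups.

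**Figure D2:**
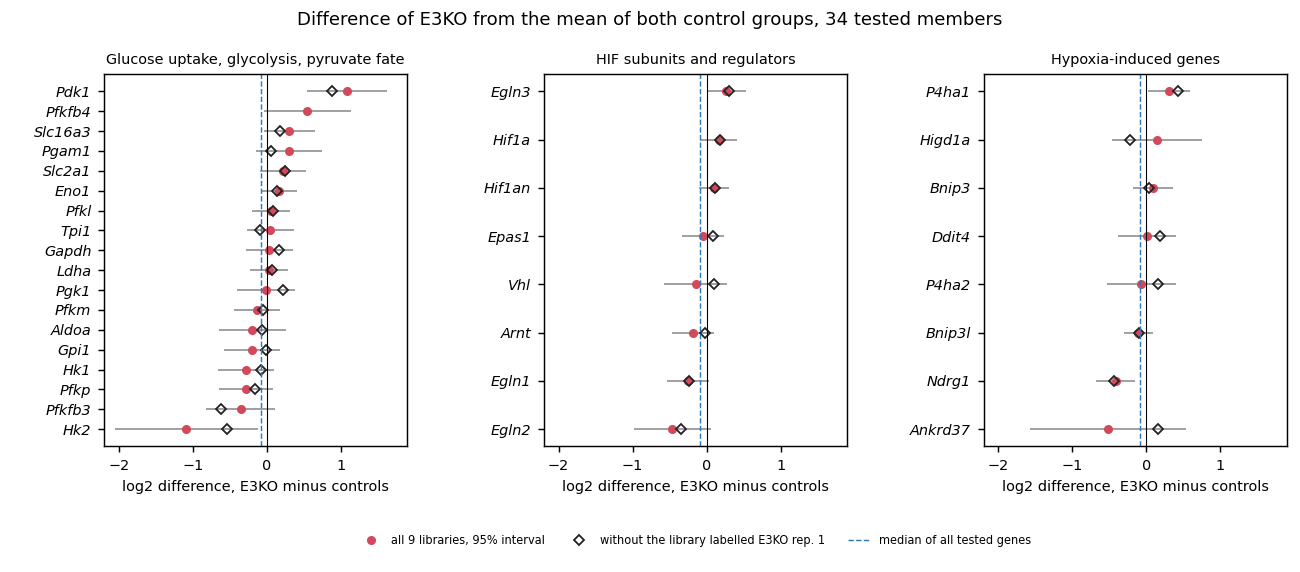
Log2 difference of E3KO from the mean of both control groups for the 34 tested members, by role, with the 95% interval from limma over all 9 libraries (red) and the value without the library labelled E3KO replicate 1 (open diamonds; *Pfkfb4* is not tested there). *Pdk1* (1.08) and *Hk2* (-1.08) lie at the ends, and the median of all tested genes (dashed line, -0.08) runs through most intervals.

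In the plot of differences most members lie within the spread of the libraries, and the open diamonds show how far 1 library moved them. Of the HIF subunits *Hif1a* had the highest level. *Hif1a*, the oxygen-labile subunit itself, was at 61.1, 76.5 and 77.3 FPKM in ECtrl, at 64.6, 75.2 and 71.9 in EfCtrl and at 76.9, 84.0 and 77.7 in E3KO. All E3KO libraries were above EfCtrl, but the library labelled E3KO replicate 1 fell within ECtrl. The log2 difference from the controls was 0.16 (95% interval -0.08 to 0.41, limma adjusted p = 0.383), and 0.19 without that library. *Epas1*, the HIF alpha subunit named for its expression in endothelium, was lower per length than *Hif1a* in 9 of 9 libraries, at 9.42 to 13.5 FPKM, and its log2 difference was -0.05. *Arnt*, their shared partner, was at 26.8 to 29.6 FPKM in 8 libraries and at 19.7 in the library labelled E3KO replicate 1. *Hif3a* was listed at 0 in 6 libraries and at no more than 0.0508 FPKM in the others.

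Among the hydroxylases that sense oxygen, *Egln3* (chr12:54178981-54203860) separated the groups. *Egln3*, itself a known HIF target, was at 38.6, 51.1 and 48.0 FPKM in ECtrl, at 44.8, 52.1 and 49.5 in EfCtrl and at 53.8, 61.0 and 56.0 in E3KO. Every E3KO library was above every control library, the nearest being 53.8 against 52.1. The log2 difference was 0.27 (SE 0.11, 95% interval 0.00 to 0.53), which did not pass adjustment (limma adjusted p = 0.206), and it was 0.30 without the library labelled E3KO replicate 1. *Egln1*, the main oxygen sensor of most cells, ranged from 13.1 to 19.4 FPKM over the controls, with 12.7, 13.0 and 13.4 in E3KO. Its E3KO libraries were below all of EfCtrl and overlapped ECtrl, with a log2 difference from both controls of -0.25 (limma adjusted p = 0.257), and of -0.23 without the library labelled E3KO replicate 1.

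*Egln2* was at 7.67, 3.30 and 5.22 FPKM in ECtrl, at 10.4, 7.20 and 8.58 in EfCtrl and at 3.81, 4.27 and 5.89 in E3KO. E3KO was below EfCtrl in every library and within the range of ECtrl. The log2 difference was -0.79 against EfCtrl (limma adjusted p = 0.186) and -0.14 against ECtrl (limma adjusted p = 0.798), and EfCtrl was 0.65 above ECtrl (limma adjusted p = 1.0), so the controls differed from each other by nearly as much as E3KO differed from EfCtrl. Against both controls it was -0.46, and -0.35 without the library labelled E3KO replicate 1. Exons of *Egln2* overlap *Cyp2t4* on the other strand, and whether fragments were counted by strand was not stated. *Hif1an* ranged from 8.89 to 10.5 FPKM over the controls and from 9.64 to 10.9 over E3KO, and *Vhl* was at 9.14 FPKM in the library labelled E3KO replicate 1 and 12.9 to 17.4 elsewhere. Neither passed adjustment. The 8 tested HIF regulators had a median log2 difference of -0.10, with 3 above 0, and 0.0955 without the library labelled E3KO replicate 1, beside -0.0572 for all genes in that fit.

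*Ndrg1*, a differentiation gene that is a common marker of hypoxia, had the highest level of all members. *Ndrg1* was at 320.8, 256 and 278 FPKM in ECtrl, at 292, 239 and 290.1 in EfCtrl and at 216, 218 and 192 in E3KO. The 3 E3KO libraries lay below all 6 controls. The log2 difference was -0.41 (SE 0.11, 95% interval -0.68 to -0.15), just outside the threshold (limma adjusted p = 0.0781), and -0.44 (limma adjusted p = 0.102) without the library labelled E3KO replicate 1. The locus (chr15:66929321-67013039) also covers *Gm17035* and *Gm2895* on the other strand. *Car9*, a carbonic anhydrase that cells put out under low oxygen, showed the same order at a very low level. *Car9* was at 1.25, 1.20 and 1.25 FPKM in ECtrl, at 0.988, 2.19 and 1.12 in EfCtrl and at 0.0666, 0.675 and 0.891 in E3KO. It was below the minimum for testing, and without a minimum its log2 difference was -0.62 (limma adjusted p = 0.212). An antisense neighbour, *Gm12454*, overlaps its exons.

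*P4ha1*, a prolyl hydroxylase of collagen, was at 29.7, 37.6 and 36.2 FPKM in ECtrl, at 35.4, 34.8 and 35.9 in EfCtrl and at 36.3, 45.5 and 48.9 in E3KO. E3KO was above EfCtrl in every library, while the library labelled E3KO replicate 1 fell within ECtrl. The log2 difference was 0.30 (SE 0.12, limma adjusted p = 0.184) and 0.43 (SE 0.11, limma adjusted p = 0.0741) without that library. *Ankrd37*, an ankyrin repeat gene, was at 2.41, 4.98 and 2.28 FPKM in ECtrl, at 2.20, 3.53 and 4.34 in EfCtrl and at 0.146, 3.64 and 3.61 in E3KO. Its log2 difference of -0.52 (limma adjusted p = 0.519) rested on the library labelled E3KO replicate 1 and turned to 0.15 without it. Exons of *Ankrd37* overlap *Ufsp2* and *Lrp2bp* on the other strand. Exons of 15 of the 38 members overlap another gene, *Aldoa* (*Fam57b*) and *Hif1a* (*Gm15283* and *Gm49321*) among them.

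The remaining induced genes did not separate. *Bnip3* and *Bnip3l*, which direct mitochondria to autophagy, differed by 0.08 and -0.11 on the log2 scale, *Ddit4*, an inhibitor of mTOR signalling, by 0.01, *P4ha2* by -0.07 and *Higd1a* by 0.14, and none passed adjustment. *Bnip3l* was the 1 member that separated the controls from each other, at 37.8, 36.7 and 42.5 FPKM in ECtrl and 32.9, 34.2 and 35.0 in EfCtrl. Its E3KO libraries, at 33.1, 33.1 and 34.8, lay within EfCtrl. The 8 tested induced genes had a median log2 difference of -0.03, with 4 above 0, and of 0.0945 without the library labelled E3KO replicate 1.

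**Figure D3:**
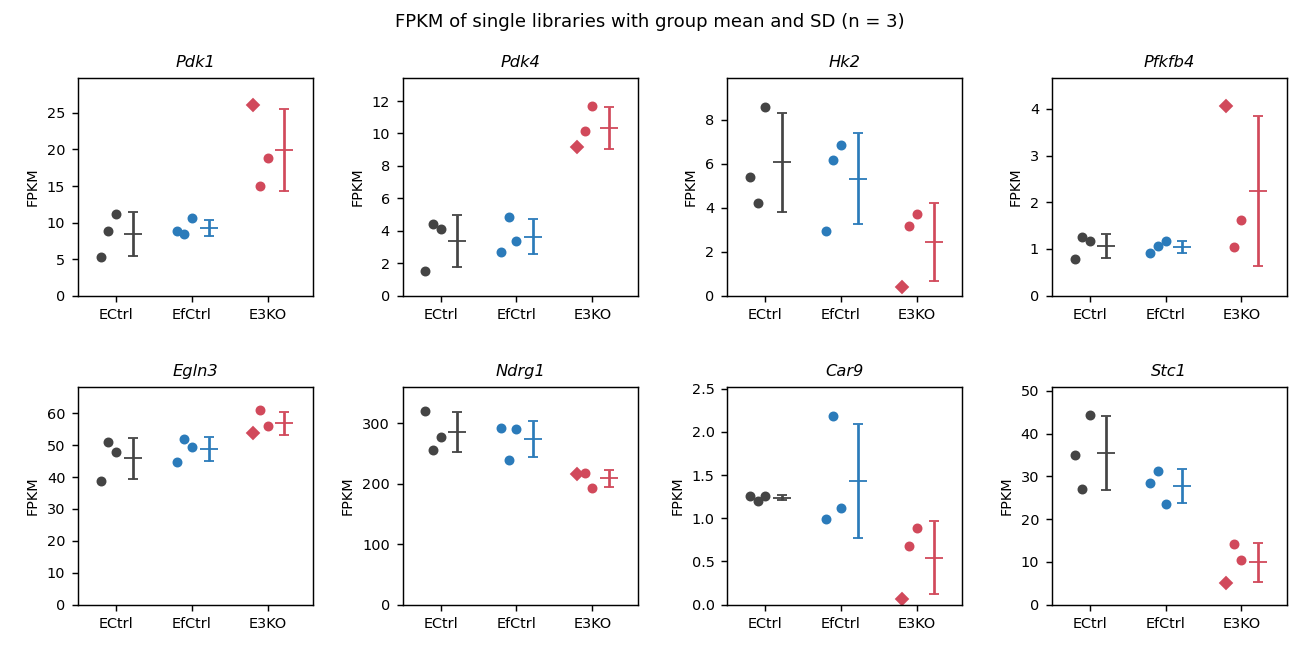
FPKM of 8 genes in each library (points; diamonds mark the library labelled E3KO replicate 1), with the mean and SD of each group (n = 3), on axes that start at 0. *Pdk1*, *Pdk4* and *Egln3* lie above all controls in E3KO and *Ndrg1*, *Car9* and *Stc1* below, while *Hk2* and *Pfkfb4* overlap them.

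The controls were also used one at a time. Against ECtrl alone 0 of 34 members were called by limma, where 2.25% of all genes were, and 6 had an unadjusted p under 0.05 (*Hk2*, *Eno1*, *Pdk1*, *Egln3*, *Ndrg1* and *P4ha1*), a share of 17.6% against 20.1%. The E3KO libraries lay above all ECtrl libraries for *Slc2a1*, *Eno1*, *Pdk1* and *Egln3* and below for *Hk2*, *Bnip3l* and *Ndrg1*, or 7 of 34 (20.6%) against 22.9% of all genes. The 4 above are 11.8% of the members, against 6.99% of all genes, and the 3 below are 8.82%, against 15.9%. Against EfCtrl alone 0 of 34 were called by limma, where 0.952% of all genes were, and 3 had an unadjusted p under 0.05 (*Pdk1*, *Egln2* and *Ndrg1*), a share of 8.82% against 17.7%. Here 8 of 34 separated (23.5%, against 29.2% of all genes), with *Pdk1*, *Egln3*, *Hif1a*, *Hif1an* and *P4ha1* above and *Egln1*, *Egln2* and *Ndrg1* below. The 5 above are 14.7% of the members, against 9.37% of all genes, and the 3 below are 8.82%, against 19.8%. Of the 8, 5 were among the 8 tested HIF regulators (62.5%, beside 29.2% of all genes), and of these 5 only *Egln2* had an unadjusted p under 0.05. Another 1 was among the 18 tested genes of glucose metabolism (5.56%) and 2 were induced genes. The split against ECtrl was the other way, with 1 of 8 HIF regulators (12.5%) and 4 of 18 genes of glucose metabolism (22.2%), beside 22.9% of all genes. Without the library labelled E3KO replicate 1, 0 members were called against either control alone by limma. These comparisons share the E3KO libraries. Between EfCtrl and ECtrl limma called 0 members and 0 of all genes (0%). At an unadjusted p under 0.05 there was 1 member (*Egln2*, 2.94%) against 1.84% of all genes, and 1 member separated (*Bnip3l*, lower in EfCtrl, 2.94%) against 7.89% of all genes (4.41% lower).

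Related genes were then set against each other within each library. The values are log2 ratios of (FPKM + 1), given with no test. The scaling of a library nearly drops out for pairs well above 1 FPKM but not for those with a gene near or below it (*Pfkfb4*, *Aldoc*, *Eno2*, *Hif3a*). *Hk2* was below *Hk1* in 9 of 9 libraries, with a log2 ratio of -3.71 to -2.56 in controls and -4.42 to -3.31 in E3KO. *Pfkp* and *Pfkm* were each above *Pfkl* in 9 of 9, and *Aldoc* was below *Aldoa*, *Eno2* below *Eno1*, *Bnip3* below *Bnip3l* and *P4ha2* below *P4ha1* in 9 of 9, with E3KO overlapping the controls in each pair. The log2 ratio of *Epas1* to *Hif1a* was -2.71 to -2.22 in controls and -2.90 to -2.44 in E3KO. *Egln1* was above *Egln2* in 9 of 9 libraries, and *Hif3a* below *Epas1*, with E3KO overlapping the controls in both pairs. E3KO stood apart from the controls in the pairs of *Egln3* with *Egln1* and of *Pfkfb4* with *Pfkfb3*. The pairs were chosen with earlier results of these data known, and how often other pairs of genes stand apart was not computed. *Pfkfb4* reached the minimum for testing only through E3KO. *Egln3* exceeded *Egln1* by 0.96 to 1.80 in controls and by 2.00, 2.15 and 1.98 in E3KO. *Pfkfb4* was below *Pfkfb3* in all libraries, by a log2 ratio of -2.19 to -1.87 in controls and of -0.86, -1.56 and -0.87 in E3KO.

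**Figure D4:**
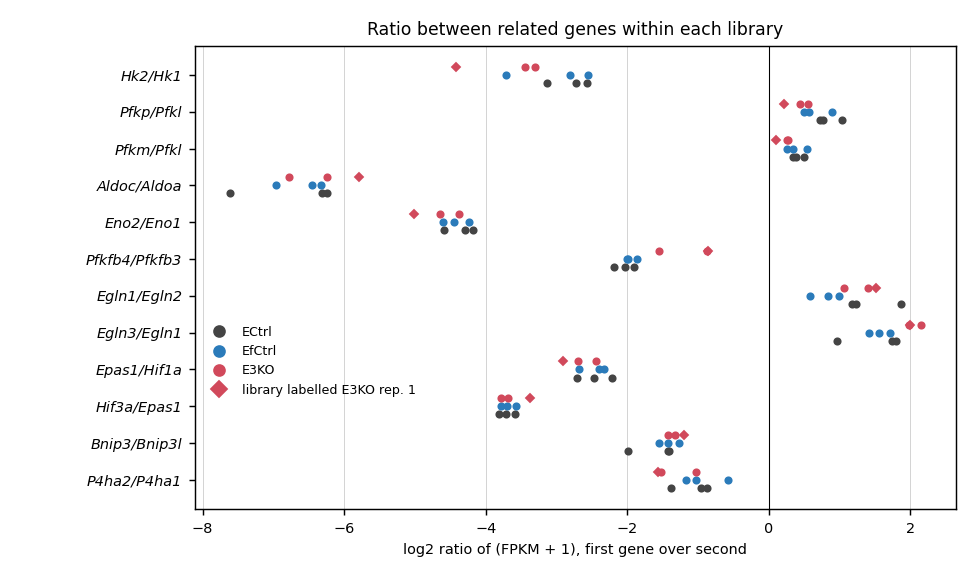
Log2 ratio of (FPKM + 1) between 12 pairs of related members within each library, with 1 point per library and diamonds for the library labelled E3KO replicate 1. *Pfkfb4*/*Pfkfb3* and *Egln3*/*Egln1* are the pairs in which all E3KO points lie to the right of the controls, and *Hif3a*/*Epas1* mirrors *Epas1* because *Hif3a* is near 0.

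The plot of ratios shows both pairs. In the pair of *Pfkfb4* and *Pfkfb3* the 3 E3KO libraries reached the higher ratio differently. The library labelled E3KO replicate 1 had more *Pfkfb4* (4.07 FPKM), whereas replicates 2 and 3 had less *Pfkfb3* (4.97 and 3.79 FPKM) than any control.

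The library labelled E3KO replicate 1 was the highest of all 9 libraries for 8 of the 34 tested members (23.5%) and the lowest for 14 (41.2%), against 20.3% and 39.5% of all tested genes. These 22 members stand beside 0 to 12 members for each of the other 8 libraries. The 14 included 8 genes of glucose metabolism (*Hk1*, *Hk2*, *Gpi1*, *Pfkm*, *Pfkp*, *Aldoa*, *Gapdh* and *Pgk1*) and 4 HIF regulators (*Egln1*, *Epas1*, *Arnt* and *Vhl*). With E3KO replicates 2 and 3 alone, 0 of 33 tested members were called by limma, where 375 of 10489 genes were, 5 had an unadjusted p under 0.05 (15.2%, against 22.6% of all genes), and 7 of the 33 differences had another sign than with all libraries. Both libraries lay above all controls for *Pdk1*, *Pgk1*, *Hif1a*, *Egln3* and *P4ha1* (15.2%, against 10.8% of all genes) and below all controls for *Pfkfb3* and *Ndrg1* (6.06%, against 16.1%).

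Other genes of the same pathways were taken from a list of 43. It was chosen with earlier results of these data known, so its shares only describe the list. Of the 43 genes 35 were tested. In E3KO against the mean of the controls 2 were called higher (5.71%, against 1.54% of all genes) and 1 lower (2.86%, against 3.26%), and 10 had an unadjusted p under 0.05 (28.6%, against 23.8%). The E3KO libraries lay above all controls for 7 (20.0%, against 5.18%) and below for 2 (5.71%, against 11.5%). *Pdk4*, another pyruvate dehydrogenase kinase, was at 1.503, 4.43 and 4.09 FPKM in ECtrl, at 2.68, 4.82 and 3.39 in EfCtrl and at 9.18, 10.1 and 11.7 in E3KO. All 3 E3KO libraries were above all controls, with a log2 difference of 1.39 (SE 0.26, limma adjusted p = 0.0279) and of 1.46 (limma adjusted p = 0.04996) without the library labelled E3KO replicate 1. It was not called against ECtrl alone (limma adjusted p = 0.0508) or EfCtrl alone (0.0839), nor against both with no minimum FPKM (0.0588). The other kinases of this family, *Pdk2* and *Pdk3*, had log2 differences of -0.16 and -0.13 and did not pass adjustment. The call of *Pdk4* was lost without EfCtrl replicate 1 or 3 (limma adjusted p = 0.0708 and 0.0723) and without E3KO replicate 2 or 3 (0.0673 and 0.105).

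*Hmox1*, heme oxygenase, which answers oxidative stress as well as hypoxia, was at 209, 263 and 344 FPKM in ECtrl, at 269, 322 and 234 in EfCtrl and at 394, 501 and 553 in E3KO. All E3KO libraries were above all controls, and the log2 difference was 0.82 (SE 0.19, limma adjusted p = 0.0466). The call held without ECtrl replicate 3 or E3KO replicate 1 (limma adjusted p = 0.0350 and 0.0455) and was lost without any 1 of the other 7 libraries, up to 0.144 without E3KO replicate 3. It was also lost with pseudocounts of 0.1 and 0.5 FPKM (limma adjusted p = 0.0568 and 0.0511) and with no minimum FPKM (0.0825), and *Hmox1* was not called against ECtrl alone (0.0814) or EfCtrl alone (0.119). *Hmox1* is also made by macrophages, and the leukocyte marker sum ran from 162 to 286 FPKM in E3KO and from 42.4 to 230.3 in controls, whose part was not tested.

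*Stc1*, the secreted hormone stanniocalcin, moved the other way. *Stc1* was at 34.9, 27.1 and 44.3 FPKM in ECtrl, at 28.4, 31.2 and 23.5 in EfCtrl and at 5.04, 14.1 and 10.4 in E3KO. Each E3KO library was below each control. The log2 difference was -1.66 (SE 0.28, limma adjusted p = 0.0217), and -1.28 (limma adjusted p = 0.0281) without the library labelled E3KO replicate 1. *Stc1* was also called against ECtrl alone (-1.82, limma adjusted p = 0.0361) and not against EfCtrl alone (-1.49, limma adjusted p = 0.0752). The call against both was lost without EfCtrl replicate 1 or 3 (limma adjusted p = 0.0598 and 0.0541) or E3KO replicate 3 (0.0803). The call against ECtrl alone was lost with only these groups in the fit (limma adjusted p = 0.157), with no minimum FPKM (0.0709) and without any 1 of the 6 controls or E3KO replicate 3 (0.0517 to 0.122). *Vegfa*, *Adm* and *Angptl4*, secreted factors that low oxygen induces, had log2 differences of -0.01, 0.06 and 0.05.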

How the data were processed

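RNA-seq was carried out on 9 libraries of cultured MLEC. The authors used TopHat2 for alignment to mm10 and Cufflinks (version 1.0.3 in the submitters' processing notes) for FPKM, merged transcript models with Cuffmerge, compared groups with Cuffdiff, and deposited FPKM per library. Their group values appear only in the closing section, and their fold changes, p-values and q-values were not used. Whether counting used strand is not given in the sources used here. FPKM does not carry fragment numbers and depth is stated only as an average over libraries, so intervals of counting error were not computed.

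Here FPKM of symbols naming 1 locus were taken as log2(FPKM + 1) and fitted with limma 3.58.1 (R 4.3.3), with 3 groups in 1 fit and Benjamini-Hochberg adjustment over 10605 genes. The fit was tried on simulated data in which each gene had the same spread in all libraries. That setting has no library that stands apart, so it does not cover the library labelled E3KO replicate 1. Intervals are 95% limits from limma. Replicates are separate isolations, and groups and numbers come from the labels. Annotation was GENCODE M21 and RefSeq promoters, both on GRCm38, the assembly of mm10, and coordinates count from 1. The 38 members, the list of 43 other genes, the pairs, the markers and the rule for named genes were chosen with earlier results of these data known. Named are members called in any comparison, members whose E3KO libraries lie outside all controls, the highest member and the pair with the largest differences in each role, and called genes of the other list. Other members are named for their role, and *Vegfa*, *Adm*, *Angptl4*, *Pdk2* and *Pdk3* were chosen after their values were seen. Alternatives covered the pseudocount, the FPKM minimum, centring, a mean-variance trend, the groups in the fit, the replicate block, the call rule and leaving out each library.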

Additional observations from a re-analysis of the deposited data

Results flagged for a closer look

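In each of the 38 members the highest and lowest of the 6 control libraries were compared with the rest by Dixon's criterion, which chance meets in about 1 in 20 groups. It was met in 4 members. *P4ha1* was lowest in ECtrl replicate 1, at 29.69 FPKM, where the other 5 controls were at 34.8 to 37.6. *Hif1an* was highest in ECtrl replicate 3, at 10.48 FPKM, against 8.89 to 9.44 in the other 5, and this library lay within the range of E3KO. *Car9* was highest in EfCtrl replicate 2, at 2.186 FPKM, against 0.988 to 1.25. *Hif3a* was at 0.02105 FPKM in ECtrl replicate 1 and listed at 0 in the other 5.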

How the results depend on the processing

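*Pdk1* was the only member called in E3KO against both controls, and 0 members were called with a pseudocount of 0.1 FPKM (limma adjusted p of *Pdk1* 0.0522), with no minimum FPKM (0.0805) or with a replicate block (0.0824), and 0 to 1 when each library was left out in turn. With the rule of no overlap the number was 3. Calls over all genes were 509, with 411, 351 and 202 under the first 3 settings, and 9 to 408 with a library left out, lowest without E3KO replicate 3. Libraries that share a number deviated together (r over 0.1) in 2 of 9 pairs (r -0.04 to 0.12). Libraries with different numbers did so in 0 of 18 pairs (r -0.21 to 0.08). Correlations this weak cannot decide whether the numbers pair the libraries, and the main fit did not use them as pairs. With the block, *Hmox1* (limma adjusted p = 0.0729) and *Stc1* (0.0531, and 0.0778 against ECtrl) were also lost, and *Pdk4* (0.0315) was not. The median log2 difference of the HIF regulators ran from -0.1852 to 0.0955 (both controls), -0.1951 to 0.0856 (ECtrl) and -0.1753 to 0.1054 (EfCtrl) with a library left out, above 0 without E3KO replicate 1, and that of the induced genes from -0.1275 to 0.0945 (both) and -0.1166 to 0.1138 (ECtrl). The median of the genes of glucose metabolism against EfCtrl was -0.1008 with a minimum of 5 FPKM. Centring each library turned *Pgk1* (0.0571), *Epas1* (0.0239) and *P4ha2* (0.0039). Leaving out a library turned *Tpi1* (-0.0851 to 0.1232), *Gapdh* (-0.1045 to 0.1613), *Pgk1* (-0.1478 to 0.2259), *Ldha* (-0.0229 to 0.087), *Epas1* (-0.1507 to 0.0879), *Vhl* (-0.3277 to 0.1031), *Ankrd37* (-0.855 to 0.1529), *Ddit4* (-0.1572 to 0.1778), *P4ha2* (-0.2707 to 0.1503) and *Higd1a* (-0.2222 to 0.4541), none of which was called. Apart from the omission of libraries, the causes were not tested. For the comparison with the mean of both controls, a fit of only the groups of the contrast is the main fit, as it uses all 3 groups. Depth per library is not given, so no counting error was computed for low genes (*Car9*, *Pfkfb4*, *Hif3a*).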

Other observations

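The authors' value for a whole group was not the mean of its libraries. Over the 34 tested members it was a median of 1.19 times that mean in E3KO, 1.09 times in ECtrl and 1.07 times in EfCtrl. The lowest was *Gapdh* in ECtrl, at 0.795 times, and the highest *Aldoa* in E3KO, at 1.31 times.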
